A study of Mus musculus with 8 samples.

Results

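The transcription factor AP-1 and a group of immediate early genes were examined in bulk RNA-seq of mouse prostate. The 10 genes were Fos, Fosb, Fosl1, Fosl2, Jun, Junb, Jund, Atf3, Egr1 and Ier2, found in the deposited count table through their Ensembl identifiers, and they are 10 of the 54532 genes counted. They were chosen by their log2 fold changes and levels in this same contrast of etanercept-treated with control mice. The differences between the groups below are thus descriptions, and test results given for them are no support.

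Male NOD mice, an inbred strain that develops autoimmune diabetes, received etanercept, a soluble TNF receptor fusion protein, at 4 mg/kg or the PBS vehicle by intraperitoneal injection, 2 times per week for 5 weeks from an age of 25 weeks, and prostates were harvested at 30 weeks. Both groups were of the same strain and age. The study pooled mice with and without diabetes in its treatment groups, and the labels do not give the diabetic status of the sequenced mice. Frozen prostates of 4 control mice (control 1, 3, 65 and 69) and 4 etanercept-treated mice (etanercept 17, 19, 50 and 52) were sequenced. Mice are numbered as in the sample labels.

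AP-1 is a pair of basic leucine zipper (bZIP) proteins held together by their zippers, most often a FOS protein (from Fos, Fosb, Fosl1 or Fosl2) with a JUN protein (from Jun, Junb or Jund) or with a relative such as ATF3. Fos, Fosb, Jun, Junb, Atf3, Egr1 and Ier2 are immediate early genes: growth factors, cytokines and stress switch on their transcription within minutes, without new protein synthesis, and their mRNAs are short-lived. TNF, the cytokine bound by etanercept, is a known activator of the JNK and p38 kinases that phosphorylate the factors bound at these genes, whereas Jund is transcribed at a steadier level in most tissues.

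The bases just upstream of the transcription start are shown for 5 of the genes, because the immediate early promoters are where kinase signals reach these genes and because they carry recognition words of the ATF/CREB and JUN proteins themselves. Each run is the 110 bases that end at the base before the start in RefSeq (build GRCm38.p6), written 5′ to 3′ on the gene's strand. Capitals mark the core TGACG of the cyclic AMP response element (CGTCA on the other strand), the JUN/ATF2 word TGACATCA and the TATAAA box. The windows are chr12:85473780-85473889 (plus strand) for Fos, chr7:19310046-19310155 (minus) for Fosb, chr8:84978749-84978858 (minus) for Junb, chr4:95052223-95052332 (minus) for Jun and chr1:191183334-191183443 (minus) for Atf3.
Fos: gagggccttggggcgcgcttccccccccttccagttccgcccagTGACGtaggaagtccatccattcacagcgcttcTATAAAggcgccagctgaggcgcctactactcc
Fosb: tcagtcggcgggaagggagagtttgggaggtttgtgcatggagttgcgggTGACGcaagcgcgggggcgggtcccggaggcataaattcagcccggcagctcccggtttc
Junb: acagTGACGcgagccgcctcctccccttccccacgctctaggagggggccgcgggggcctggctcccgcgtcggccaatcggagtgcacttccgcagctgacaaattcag
Jun: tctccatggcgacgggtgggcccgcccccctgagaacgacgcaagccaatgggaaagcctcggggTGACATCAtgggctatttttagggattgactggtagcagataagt
Atf3: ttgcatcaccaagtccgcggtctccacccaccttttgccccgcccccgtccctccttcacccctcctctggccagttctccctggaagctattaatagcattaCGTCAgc

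The motif search covered 7 of the 10 genes (these 5, Fosl2 and Jund), over 250 bases before and 50 after the RefSeq start and on both strands. TGACG was present in 4 of the 7 (Fos, Fosb, Junb and Atf3) and in 20.8% of all 32851 promoters of that length. Its first base lay at −66 and −129 in Fos, −60 in Fosb, −106 in Junb and −7 in Atf3, counting −1 as the base before the start. TGACATCA was found in Jun, at −45, and in 3.62% of all promoters. TATAAA was in 2 of the 7 and in 13.6% of all promoters. It lay at −33 in Fos and at position 1, past the printed bases, in Junb. GGGCGG, a word of Sp1, was in 5 of the 7 and in 35.7% of all. The full element TGACGTCA (1.79% of all promoters), which contains TGACG, the AP-1 word TGACTCA (5.20%) and the CArG box of the serum response factor (1.63%) were in 0 of the 7 windows. Sites farther than 250 bases before the start would be missed, and Egr1 was not among the genes searched. A match describes letters and is no measured binding. RefSeq's start lay 34706 nt inside the GENCODE gene in Atf3, 671 nt inside it in Fosl2, and upstream of it in Jund and Junb, so these windows belong to the start RefSeq lists, which is not always the GENCODE gene start.

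Libraries held 13760669 to 25178942 counts per mouse, and all 10 genes were among the 15472 that passed the filter on low counts. The prostate marker list was detected in full, at a summed level of 14887 to 248503 CPM (counts scaled to library size with TMM factors) in control and 16835 to 201663 CPM in etanercept-treated mice. Etanercept 17 stood apart: its 6 seminal vesicle markers summed to 87861 CPM, against 0 to 3566 CPM in the other 7 mice. The libraries also differed with base composition and gene length. Spearman's rho across genes between GC content and a gene's deviation from its mean was 0.000646 to 0.240 in control and −0.145 to −0.0722 in etanercept-treated mice (two-sided exact permutation test, p = 0.0286, which is the least possible with 4 mice per group, and 0.0714 adjusted over 5 technical values). With exon length in place of GC content it was −0.159 to −0.0114 in control and 0.0638 to 0.154 in etanercept-treated mice, with the same p-values. In bulk tissue, fewer cells of a type and less RNA per cell cannot be told apart.

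Compared per length, as TPM, the gene with the highest level was Jund, whose protein is the JUN partner of resting cells, at a mean of 294 TPM over the 8 mice. Ier2, which encodes a small nuclear protein, followed at 92.4 TPM, and Junb, a JUN protein that often restrains JUN activity, at 87.3 TPM. Jund was higher than Ier2 in 8 of 8 mice, while Ier2 was higher than Junb in 4 of 8, so these neighbours do not differ beyond their spread. The middle of the order was Fos at 33.4, Jun at 29.1, Atf3 at 21.9 and Egr1 at 18.4 TPM, and Fos was higher than Jun in 3 of 8 mice only. Fosl2 had 9.98, Fosb 2.53 and Fosl1 0.573 TPM. Junb was higher than Fos, and Fosl2 higher than Fosb, in 8 of 8 mice, and the other neighbours kept their order in 5 to 7 of 8. The order differed between the groups: in control mice Fos averaged 53.9, Jun 32.5, Egr1 26.7 and Atf3 19.2 TPM, whereas in etanercept-treated mice Jun averaged 25.8, Atf3 24.7, Fos 12.9 and Egr1 10.1 TPM, and Junb (65.6) lay just above Ier2 (64.9).

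Fos, Fosb and Egr1 had their highest levels in the same pair of control mice. Fos (chromosome 12, 85473890 to 85477273, 4 exons) encodes the founding FOS protein. It had 149, 45.6, 19.7 and 5.96 CPM in control 1, 3, 65 and 69 and 26.8, 12.3, 2.81 and 10.5 CPM in etanercept 17, 19, 50 and 52, which correspond to between 47 and 4123 counts. Control 1 and 3 lay above every other mouse, control 69 lay below 3 of the 4 etanercept-treated mice, and the groups overlapped. The mean was 55.1 ± 64.8 CPM in the control group and 13.1 ± 10.04 CPM in the treated group (SD, n = 4 each), which is a log2 fold change of −2.07 ± 0.92 (SE). Without control 1 and 3 the log2 fold change of Fos was 0.03, and without control 1 alone it was −0.88.

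Fosb (chromosome 7, 19302696 to 19310051, 4 exons), whose protein pairs with JUN proteins as FOS does, had 21.6, 12.7, 3.03 and 4.69 CPM in control 1, 3, 65 and 69. In etanercept 17, 19, 50 and 52 it had 5.59, 3.26, 3.23 and 1.94 CPM. The remaining control mice lay within the etanercept range. The means were 10.5 ± 8.51 and 3.51 ± 1.52 CPM (SD, n = 4 each), the log2 fold change was −1.58 ± 0.63 (SE), and it was −0.15 without control 1 and 3.

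Egr1 (chromosome 18, 34859823 to 34864984, 2 exons) encodes a zinc finger factor induced by the same kinases through serum response factor sites. Its levels were 92.7, 78.1, 25.1 and 13.3 CPM in the control mice in the same order and 20.5, 13.7, 18.2 and 25.8 CPM in the etanercept-treated mice. Control 1 and 3 formed a cluster of their own, and the other 6 mice lay within 13.3 to 25.8 CPM. The means were 52.3 ± 39.0 and 19.6 ± 5.03 CPM (SD, n = 4 each), with a log2 fold change of −1.42 ± 0.54 (SE) over all mice and 0.03 without control 1 and 3.

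Markers of other cell types and Tnf also differed between these mice. The 5 adipocyte markers summed to 174, 326, 24.02 and 71.0 CPM in control 1, 3, 65 and 69 and to 20.1 to 29.9 CPM in the etanercept-treated mice. At a nominal (unadjusted) p of 0.05 or less, 4 of the 5 were lower with etanercept, against 3.63% of all tested genes. Tnf had 66, 18, 0 and 0 counts in the control mice and 0, 0, 8 and 0 in the etanercept-treated mice, too few to be tested. The 5 macrophage markers summed to 287, 709, 376 and 222 CPM in control 1, 3, 65 and 69 and to 176 to 245 CPM in etanercept-treated mice, highest in control 3 with control 65 above control 1, and the 5 T cell markers to 84.1, 112, 69.2 and 38.1 CPM in the control mice and to 33.8 to 51.7 CPM in the treated mice, with control 1 and 3 above every other mouse. In the macrophage and T cell lists 3 of the 5 were lower at that nominal p, against 3.63% of all tested genes. The 4 endothelial markers were also highest in control 1 and 3, at 72.1 and 137 CPM against 39.8 to 69.02 CPM in the other 6 mice. The 5 smooth muscle markers went the other way, with 3038 to 6214 CPM in control and 5551 to 11060 CPM in etanercept-treated mice. Of these 5, 3 were higher at that nominal p, against 2.99% of all tested genes. The TNF receptor genes Tnfrsf1a and Tnfrsf1b had log2 fold changes of −0.067 ± 0.19 and −0.21 ± 0.42 (SE). Control 1, with the highest Fos, Fosb and Egr1, also had the lowest prostate marker sum of the 8 mice (14887 CPM), the lowest smooth muscle sum (3038 CPM) and the highest sum of 4 neuron markers (756 CPM, against 0.695 to 320 CPM in the other mice). The part of these cell types in the levels of Fos, Fosb and Egr1 was not tested.

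**Figure D1:**
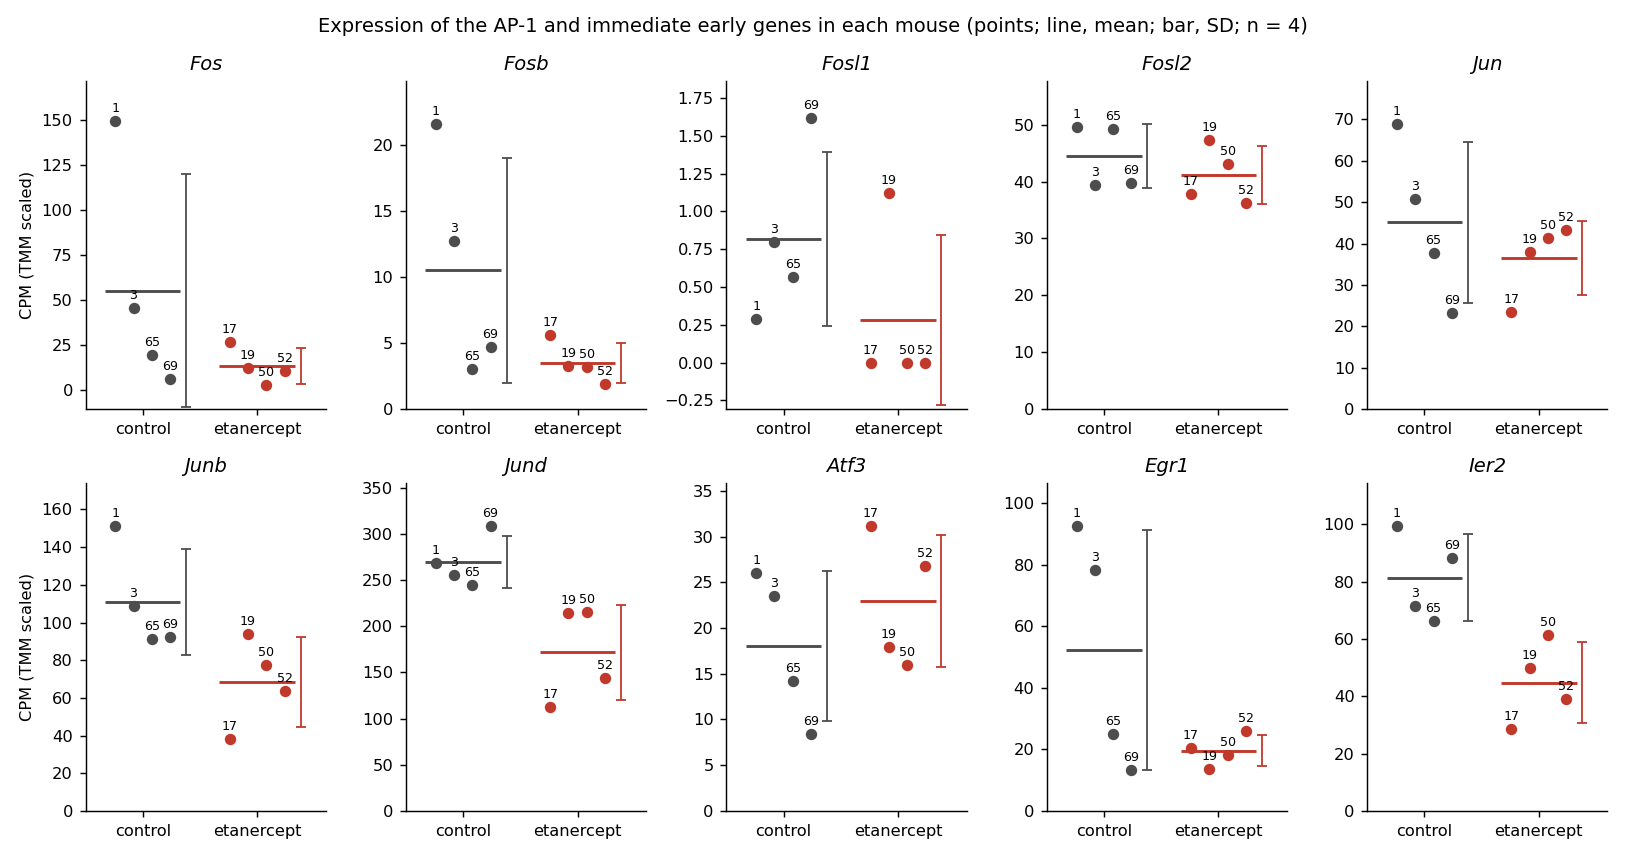
Expression in CPM after TMM scaling (vertical axis, linear) of the 10 genes in each control (grey) and etanercept-treated (red) mouse, with the animal number beside each point, a line at the group mean and a bar of 1 SD beside it (n = 4 per group). Fos, Fosb and Egr1 are high in control 1 and 3 only, whereas every etanercept-treated mouse lies below every control mouse in Jund and Ier2.

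Jund, Ier2 and, in part, Junb had another pattern, with a smaller difference that did not depend on control 1 and 3 alone. Jund (chromosome 8, 70698949 to 70700616, 1 exon) had 269, 255, 244 and 309 CPM in control 1, 3, 65 and 69 and 113, 214, 216 and 144 CPM in etanercept 17, 19, 50 and 52. The groups did not overlap, and etanercept 17 and 52 were the lowest. The means were 269 ± 28.3 and 172 ± 51.5 CPM (SD, n = 4 each), which is a log2 fold change of −0.65 ± 0.23 (SE), which lay between −0.78 and −0.49 when single mice were left out and was −0.69 without control 1 and 3.

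Ier2 (chromosome 8, 84661331 to 84662852, 1 exon) had 99.6, 71.7, 66.4 and 88.1 CPM in the control mice and 28.5, 49.9, 61.5 and 39.1 CPM in the etanercept-treated mice, in the same order. Here too the groups did not overlap, although the gap between control 65 and etanercept 50 was small. Ier2 averaged 81.5 ± 15.3 and 44.8 ± 14.2 CPM (SD, n = 4 each), with a log2 fold change of −0.86 ± 0.25 (SE), between −1.05 and −0.70 when single mice were left out and −0.79 without control 1 and 3.

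Junb (chromosome 8, 84974484 to 84978718, 1 exon) had 151, 109, 91.0 and 92.2 CPM in the control mice and 37.9, 94.1, 77.5 and 63.8 CPM in the etanercept-treated mice. Only etanercept 19 lay above a control mouse. Its means were 111 ± 28.3 and 68.3 ± 23.8 CPM (SD, n = 4 each) and its log2 fold change was −0.70 ± 0.28 (SE), between −0.89 and −0.50 when single mice were left out and −0.43 without control 1 and 3, so that those mice held a larger part of it than in Jund or Ier2. Groups that do not overlap, with etanercept lower, were found in 2.53% of the 15472 genes, and nothing is read from the 2 of these genes that share that feature, since they were chosen with this contrast known.

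In all 3 genes etanercept 17, the mouse with seminal vesicle transcripts, was the lowest of the 8. Without it the log2 fold changes were −0.49 in Jund, −0.70 in Ier2 and −0.50 in Junb. These genes were also rich in G and C. Their longest transcripts held 67.1% (Jund), 60.9% (Ier2) and 62.6% (Junb) GC, above 99.8%, 97.3% and 98.8% of the tested genes, whereas Fos, at 51.9%, Fosb, at 56.0%, and Egr1, at 57.3%, lay above 62.2%, 82.5% and 88.4%. After removal of the trend of expression with GC content in each mouse, the log2 fold changes were −0.42 in Jund, −0.69 in Ier2 and −0.48 in Junb, against −2.03 in Fos, −1.47 in Fosb and −1.28 in Egr1. Among all 645 tested genes with at least 60% GC the median log2 fold change was −0.23 and 466 were negative, with 56 lower and 7 higher at a nominal p of 0.05 or less. Among the 779 coding genes with 1 exon it was −0.046, with 43 lower and 11 higher. Over all 15472 tested genes the median was −0.0099 and 51% were negative, with 3.63% lower and 2.99% higher.

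**Figure D2:**
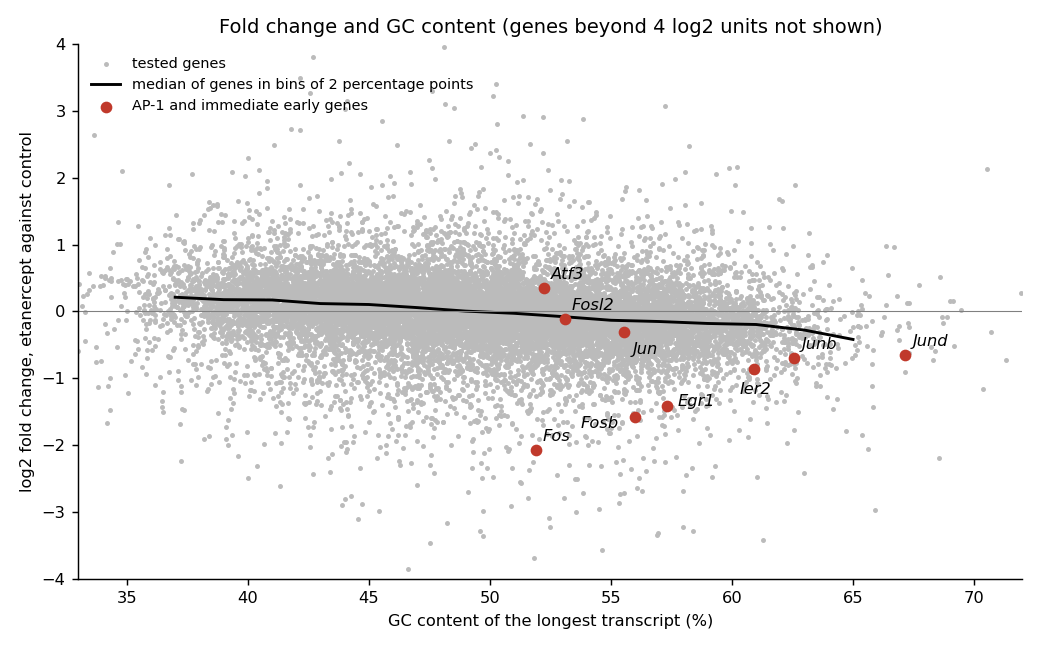
Log2 fold change of etanercept against control (vertical axis) plotted against GC content of the longest transcript in percent (horizontal axis) for the tested genes (grey) and 9 of the 10 genes (red, Fosl1 left out), with a black line at the median of bins of 2 percentage points. The line slopes down with GC content; Jund, Junb and Ier2 lie at the GC-rich end, below the line, and Fos, Fosb and Egr1 lie farther below it at 51.9%, 56.0% and 57.3% GC.

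The other 4 genes had smaller differences between the groups or too few counts. Jun (chromosome 4, 95049034 to 95052222, 1 exon), the gene of the founding JUN protein, had 68.9, 50.7, 37.8 and 23.2 CPM in the control mice and 23.5, 37.9, 41.3 and 43.2 CPM in the etanercept-treated mice. As with Fos, Fosb and Egr1, control 1 and 3 lay above every other mouse, and the etanercept-treated mice lay within the range of the control mice. Its means were 45.2 ± 19.4 and 36.5 ± 8.90 CPM (SD, n = 4 each), and its log2 fold change was −0.31 ± 0.33 (SE) over all mice and 0.26 without control 1 and 3, so its sign depended on those mice.

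Atf3 (chromosome 1, 191170296 to 191218039, 4 exons), a stress-induced factor that mostly represses transcription, was the one gene with a higher mean in the etanercept-treated group. It had 26.0, 23.5, 14.2 and 8.45 CPM in the control mice and 31.2, 18.0, 16.0 and 26.8 CPM in the etanercept-treated mice, and the ranges overlapped. The means were 18.0 ± 8.17 and 23.0 ± 7.23 CPM (SD, n = 4 each), with a log2 fold change of 0.35 ± 0.37 (SE). That value was 1.02 without control 1 and 3, 0.11 without control 69 and 0.17 without etanercept 17, and it was −0.02 in the mice with animal numbers below 20 and 0.92 in those above 49.

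Fosl2 (chromosome 5, 32135801 to 32157842, 4 exons), the gene of FRA-2, was the most even of the 10. It had 49.5, 39.4, 49.2 and 39.8 CPM in the control mice and 37.8, 47.3, 43.2 and 36.3 CPM in the etanercept-treated mice, at a log2 fold change of −0.11 ± 0.16 (SE). Fosl1 (chromosome 19, 5447547 to 5455946, 4 exons), the gene of FRA-1, was close to the limit of detection, with 8, 12, 8 and 28 counts in the control mice and 0, 21, 0 and 0 in the etanercept-treated mice. Where Fosl1 had 0 counts, 3 counts would have been between 1.69e-05% and 2.11e-05% of the library, for counting error only, and no fold change is given for it.

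**Figure D3:**
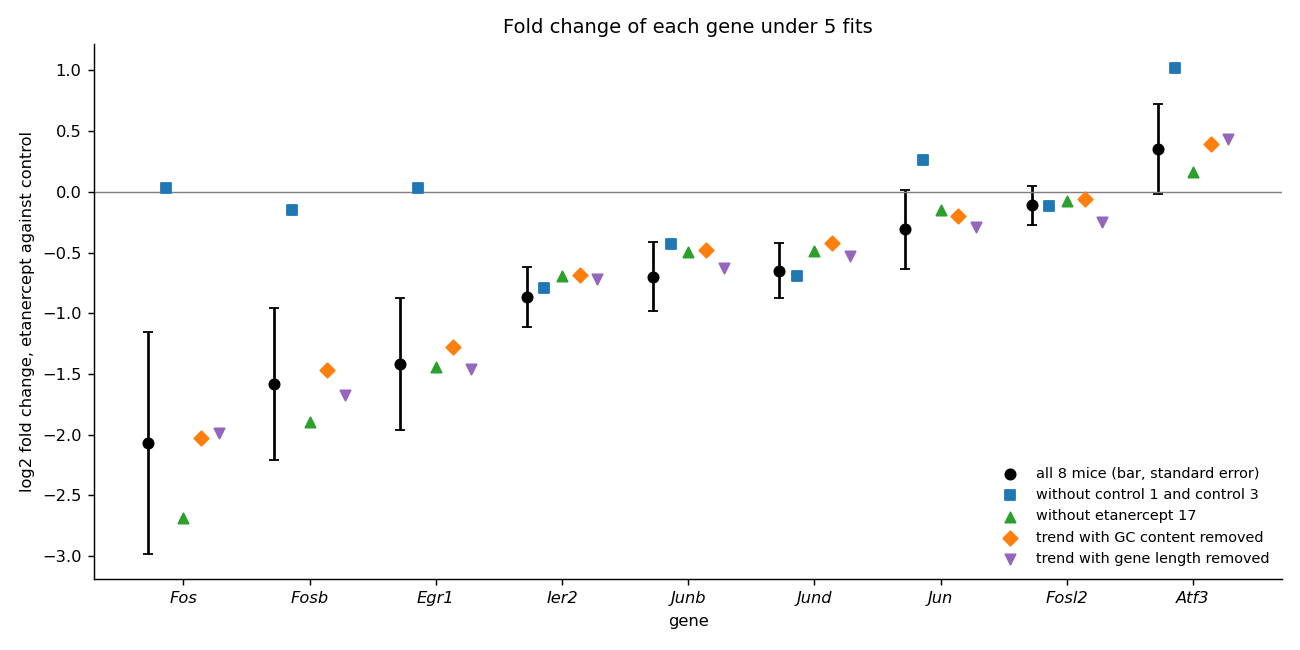
Log2 fold change of etanercept against control (vertical axis) of 9 genes in 5 fits: all 8 mice (black, with the standard error), without control 1 and 3 (blue squares), without etanercept 17 (green), and with the trend with GC content (orange) or gene length (purple) removed. Leaving out the 2 control mice brings Fos, Fosb and Egr1 to between −0.15 and 0.03, while Ier2, Junb and Jund stay between −0.86 and −0.42 in all 5.

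With edgeR's quasi-likelihood test and Benjamini-Hochberg adjustment, 0 of the 10 genes and 0% of all tested genes reached an adjusted p of 0.05, and the smallest adjusted p of any gene was 0.739. At a nominal p of 0.05 or less there were 1024 genes, of which 561 (3.63%) were lower and 463 (2.99%) higher with etanercept. Of the 10 genes, 6 were among the lower ones (Fos, Fosb, Egr1, Jund, Ier2 and Junb) and 0 among the higher ones. A negative log2 fold change was found in 9 of them, Fosl1 with its few counts included, and in 51% of all genes. With at least 10 counts required in every mouse, which leaves out Fosl1, 8 of 9 were negative. As the 10 genes were chosen with this contrast known, these counts are descriptions and no support for a difference. DESeq2 called 0 of the 10 and 0.0898% of the genes it tested at the adjusted threshold. The number at the nominal one depended on single mice and on the fit: it was 2 (Jund and Ier2) without control 1 (against 2.82% of all genes lower) or without control 3 (3.03%), 4 without etanercept 17, against 3.95% of all genes, 4 without etanercept 19 (2.66%; Fosl1, then at 0 in every treated mouse, was one), 3 without etanercept 50 (2.62%) and 2 without etanercept 52 (2.69%). It was 5 with the animal number as a block (2.81%), where Egr1 no longer passed at −1.06 ± 0.54 (SE), and 5 in the robust fit (3.57%), where Fos no longer passed. Without both control 1 and 3 it was 1 lower gene, Ier2, against a background of 2.01%, and 1 higher gene, Atf3, against 2.97%. It was 3 (Fosb, Egr1 and Ier2) with the GC trend removed, against 3.32%, and again 3 with the length trend removed, against 3.53%. Among mice with animal numbers below 20 it was 5, against 2.4%, and among those above 49 it was 0, against 1.34%, with 2 mice per group in each.

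Divided by animal number, control 1 and 3 fall on one side, so the division repeats the observation above and is no separate support for it. Among control 1 and 3 and etanercept 17 and 19 the log2 fold change was −2.32 ± 0.69 in Fos, −2.32 ± 0.33 in Egr1, −1.13 ± 0.39 in Ier2, −0.96 ± 0.37 in Jun and −0.68 ± 0.39 in Jund (SE). Among control 65 and 69 and etanercept 50 and 52 it was −0.94 ± 0.86 in Fos, 0.20 ± 0.41 in Egr1, −0.63 ± 0.32 in Ier2, 0.47 ± 0.31 in Jun and −0.63 ± 0.32 in Jund (SE). The labels do not say what the animal numbers stand for, and whether the sets differ was not tested.

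The mean of log2(CPM + 1) over the 10 genes was 5.72, 5.31, 4.71 and 4.50 in control 1, 3, 65 and 69 and 4.38, 4.59, 4.32 and 4.38 in etanercept 17, 19, 50 and 52. The control mice were thus spread over a wide range (5.06 ± 0.56) and the etanercept-treated mice over a narrow one (4.42 ± 0.12, SD, n = 4 each), and the range of etanercept-treated mice reached just above control 69. For Fos, Fosb and Egr1 the means were 4.51 ± 1.39 and 3.31 ± 0.50, and for Jund, Junb and Ier2 they were 7.06 ± 0.20 and 6.29 ± 0.48. These sets were formed from the patterns seen above, and the SD of the latter in the etanercept-treated group rests on etanercept 17, at 5.67 against 6.17 to 6.67 in the other 3 mice.

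**Figure D4:**
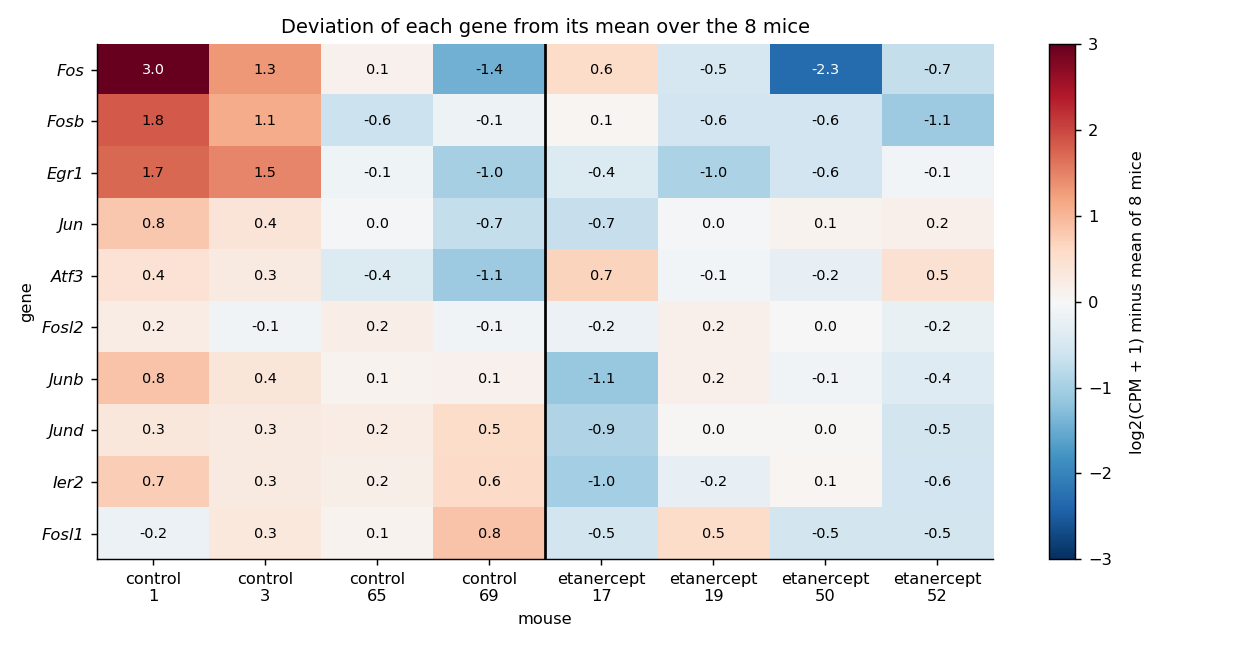
Deviation of log2(CPM + 1) from its mean over the 8 mice (colour scale and printed values, log2 units) for the 10 genes (rows) in each mouse (columns), with a line between control and etanercept-treated mice. The darkest red cells of the upper rows belong to control 1 and 3, and the lowest cells of Junb, Jund and Ier2 to etanercept 17.

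Within the groups the genes differed widely in their spread between mice, a measure that does not use the difference between the groups. The pooled within-group SD of log2(CPM + 1) was 1.57 in Fos, larger than in 98.5% of the tested genes, 0.95 in Egr1 (91.8%) and 0.88 in Fosb (88.9%). In the control group alone the highest Fos value was 25.0 times the lowest. Atf3 (0.58), Jun (0.54), Fosl1 (0.49) and Junb (0.46) lay at the 68.0, 62.5, 56.9 and 52.6 percentile. Ier2, with 0.38, and Jund, with 0.34, lay at the 41.0 and 34.5 percentile, and Fosl2, with 0.18, was steadier than most genes, at the 6.44 percentile. Fos had the widest spread of the 10, and the places below it depended on settings: with a pseudocount of 0.1 Fosl1 rose to the 84.8 percentile, above Fosb (76.6) and Egr1 (76.1), without control 69 Ier2 lay at the 51.1, and without etanercept 17 Jund lay at the 19.8 percentile.

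Correlations between the genes over the mice were examined pair by pair. The difference between the groups, by which the genes were chosen, enters a correlation over all 8 mice. The p-values over all mice carry that choice and are no support for a link between genes. Each pair was therefore also examined with the group means removed. Of the 45 pairs, 2 had an adjusted p of 0.05 or less (Benjamini-Hochberg over the pairs) for Pearson's r of log2(CPM + 1) over all mice (two-sided exact permutation test). Jund and Ier2 had r = 0.958 (exact p = 0.000248, adjusted 0.0112) and rho = 0.976 (exact p = 0.000397, adjusted 0.0179) over 8 mice, and r = 0.852 without the 2 mice farthest from the median of Jund. With the group means removed r was 0.895 (exact permutation within groups, p = 0.0156, adjusted 0.281). Junb and Ier2 had r = 0.906 (exact p = 0.00179, adjusted 0.0402), rho = 0.810 (exact p = 0.0218, adjusted 0.486) and r = 0.690 without the 2 farthest mice, and 0.826 with the group means removed (exact p = 0.0365, adjusted 0.312). Without etanercept 52, 0 pairs passed over all mice.

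Within groups the pair with the smallest p was Fos and Atf3, whose group differences have opposite signs. Their r was 0.914 with the group means removed (exact permutation within groups, p = 0.00694, adjusted 0.25) and 0.568 over all mice (exact p = 0.144, adjusted 0.464). With 576 pairings within groups the smallest p is 0.00174, which for 1 pair among the 36 examined in this way adjusts to 0.0625, so that no single pair could pass and the adjusted values within groups decide nothing. A nominal p of 0.05 or less was found in 5 pairs. Junb and Jund had r = 0.875 (exact p = 0.00441, adjusted 0.0662) and Fos and Fosb r = 0.826 (exact p = 0.0104, adjusted 0.117) over all mice, with rho of 0.738 and 0.690. Fos had an r of 0.0776 with Jund and 0.237 with Ier2 over all mice (exact permutation p = 0.851 and 0.575), and of −0.511 and −0.287 with the group means removed (exact permutation within groups, p = 0.123 and 0.453). Since Egr1 fell into clusters of 2 and 6 mice, its 9 pairs were computed over the 6 mice alone, and 0 of those passed.

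The 10 genes outside the group whose log2(CPM + 1) was most like that of Fos over the 8 mice, out of 15472 searched, were Mrps35 (Pearson's r = 0.972), 2010008C14Rik (0.968), Nuak1 (0.956), Arpc5 (0.955), Slfn8 (0.954), Tcof1 (0.953), Ranbp1 (0.948), Sox5 (0.946), Gm43088 (0.943) and Lmo1 (0.943). None of the genes on the pathway lists described next was among them. For Jund the 5 most alike were Mettl18 (0.983), Tusc1 (0.977), Kars (0.972), Cox11 (0.959) and Dennd1a (0.955). These were picked as the highest of many and carry no test.

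Other immediate early transcription factors, which answer the same signals, showed the same direction in part. This list and those that follow were chosen with earlier results of these data known, so their direction is no separate support. Of the 17 tested (Egr4 and Npas4 were too low), 13 had a negative log2 fold change, 4 were lower and 0 higher at a nominal p of 0.05 or less, against 3.63% and 2.99% of all tested genes, and their median log2 fold change was −0.51, against −0.0099 over all tested genes. Csrnp1, a nuclear factor first found through its induction by axin, had 27.2 ± 3.50 CPM in the control group and 14.8 ± 2.63 CPM in the treated group (SD, n = 4 each), with a log2 fold change of −0.87 ± 0.20 (SE) and groups that did not overlap. Nr4a1, an orphan nuclear receptor and classic partner of Fos in the early response, had 65.7, 78.1, 47.1 and 18.9 CPM in the control mice and 18.0 to 27.5 CPM in the etanercept-treated mice. Like Fos, it was low in control 69, and its r with Fos was 0.817. Hes1, the Notch target, had 104 ± 28.8 and 59.5 ± 15.7 CPM without overlap, and Klf2, a factor of quiescent endothelium and lymphocytes, had 35.8 ± 23.4 and 17.8 ± 1.97 CPM (SD, n = 4 each), set by 69.5 CPM in control 3. Egr3, a relative of Egr1, also peaked in control 3, at 12.4 CPM against 0.359 to 3.61 CPM in the other mice. Without control 1 and 3 the list held 2 lower and 0 higher genes, against 2.01% and 2.97% of all genes, and its median was −0.11.

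The list named feedback regulators of the early response also held other early response genes, such as Ccn1, Ccn2 and Arc. It gave 5 lower and 0 higher of 34 genes at the nominal threshold (3.63% and 2.99% of all genes), 27 of them negative, with a median of −0.28. Socs3, the inhibitor of JAK-STAT signalling, had 14.8 ± 3.60 CPM in the control group and 6.30 ± 1.26 CPM in the treated group (SD, n = 4 each) without overlap, at a log2 fold change of −1.23 ± 0.29 (SE). Dusp1, the phosphatase that inactivates p38 and JNK, had 37.9, 61.0, 21.2 and 25.0 CPM in the control mice and 26.4, 12.995, 17.6 and 16.5 CPM in the etanercept-treated mice. Dusp5, an ERK phosphatase, followed Fos most closely of the list (r = 0.915), with 20.4 and 15.7 CPM in control 1 and 3 and 5.96 to 9.36 CPM in the other 6 mice, and its log2 fold change of −0.67 ± 0.39 (SE) did not pass. Dusp2, a further MAP kinase phosphatase, had a log2 fold change of −1.16 ± 0.56 (SE). Nfkbia, the gene of the NF-kappaB inhibitor I-kappaB-alpha, had 69.99 ± 17.4 and 49.1 ± 5.43 CPM (SD, n = 4 each), and Ier5l had a log2 fold change of −0.85 ± 0.37 (SE). Without control 1 and 3 there was 1 lower gene in this list (2.01% of all genes) and the median was −0.14.

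Among 25 other bZIP genes, whose proteins can pair with or compete with AP-1, 5 were lower and 1 higher (3.63% and 2.99% of all genes), 13 were negative and the median was −0.04. Cebpb and Cebpd, C/EBP factors of the inflammatory response, had log2 fold changes of −0.90 ± 0.21 (SE) and −1.27 ± 0.40 (SE). Cebpb had 34.7 ± 9.13 CPM in the control group against 18.6 ± 1.81 CPM in the treated group (SD, n = 4 each), without overlap. Batf2 had a log2 fold change of −1.72 ± 0.76 (SE). Atf2, the JUN partner at TGACATCA words such as that of Jun, was the higher one, with 50.5 ± 6.20 CPM in the control group and 71.7 ± 7.68 CPM in the treated group (SD, n = 4 each), without overlap. Mafg followed Fos (r = 0.824) at a nearly constant level of 31.2 to 37.2 CPM. Without control 1 and 3 the list held 1 lower and 1 higher gene (2.01% and 2.97% of all genes).

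The kinases and factors upstream of these genes showed no common direction: of 37 genes, 2 were lower (Map3k5, the stress kinase ASK1, and Elk4, a partner of serum response factor) and 3 were higher (3.63% and 2.99% of all genes), 21 were negative and the median was −0.05. Braf, a kinase that activates the ERK branch, was among the higher ones, with 40.1 ± 9.54 CPM in the control group and 61.0 ± 9.43 CPM in the treated group (SD, n = 4 each). The members of this list most like Fos were Map2k2 (r = 0.812) and Map2k7 (r = 0.713), with log2 fold changes of −0.27 ± 0.21 and −0.49 ± 0.23 (SE).

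Known AP-1 targets gave 3 lower (3.63% of all genes) and 0 higher (2.99%) of 23 tested genes (Mmp3, Mmp10, Mmp13 and Il6 were too low), 13 negative. Their median was −0.19 and turned to 0.23 without control 1 and 3. Without etanercept 17 it was −0.42, with 2 lower, 1 higher and 16 negative. In that fit 632 (3.95%) of all 15980 tested genes were lower and 457 higher. The lower ones were Mt2, a metallothionein (log2 fold change −1.24 ± 0.38, SE), Timp1, an inhibitor of matrix proteases (−1.13 ± 0.44, SE), and Mmp14, a membrane-bound matrix protease, with 162, 124, 113 and 57.5 CPM in the control mice and 46.2 to 80.4 CPM in the etanercept-treated mice. Mmp14 followed Fos over the mice (r = 0.859). Krt18, a keratin of luminal epithelium, had a value of −0.51 ± 0.23 (SE), and Mt1 had one of −0.046 ± 0.41 (SE). Of 16 heat shock genes, which are induced by protein damage through another factor, 0 passed in either direction, 7 were negative and the median was 0.015. Within this list Hspa1b and Hspa8 had r = 0.911 and 0.837 with Fos and log2 fold changes of −0.43 ± 0.26 and −0.46 ± 0.28 (SE), Hspa1a had −0.66 ± 0.44 (SE) and Hspa4l 0.56 ± 0.28 (SE). Hspa1a and Hspa1b are near-identical copies, so their counts are uncertain. By edgeR's quasi-likelihood test the adjusted p was 0.739 or more for each gene of these lists.

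**Figure D5:**
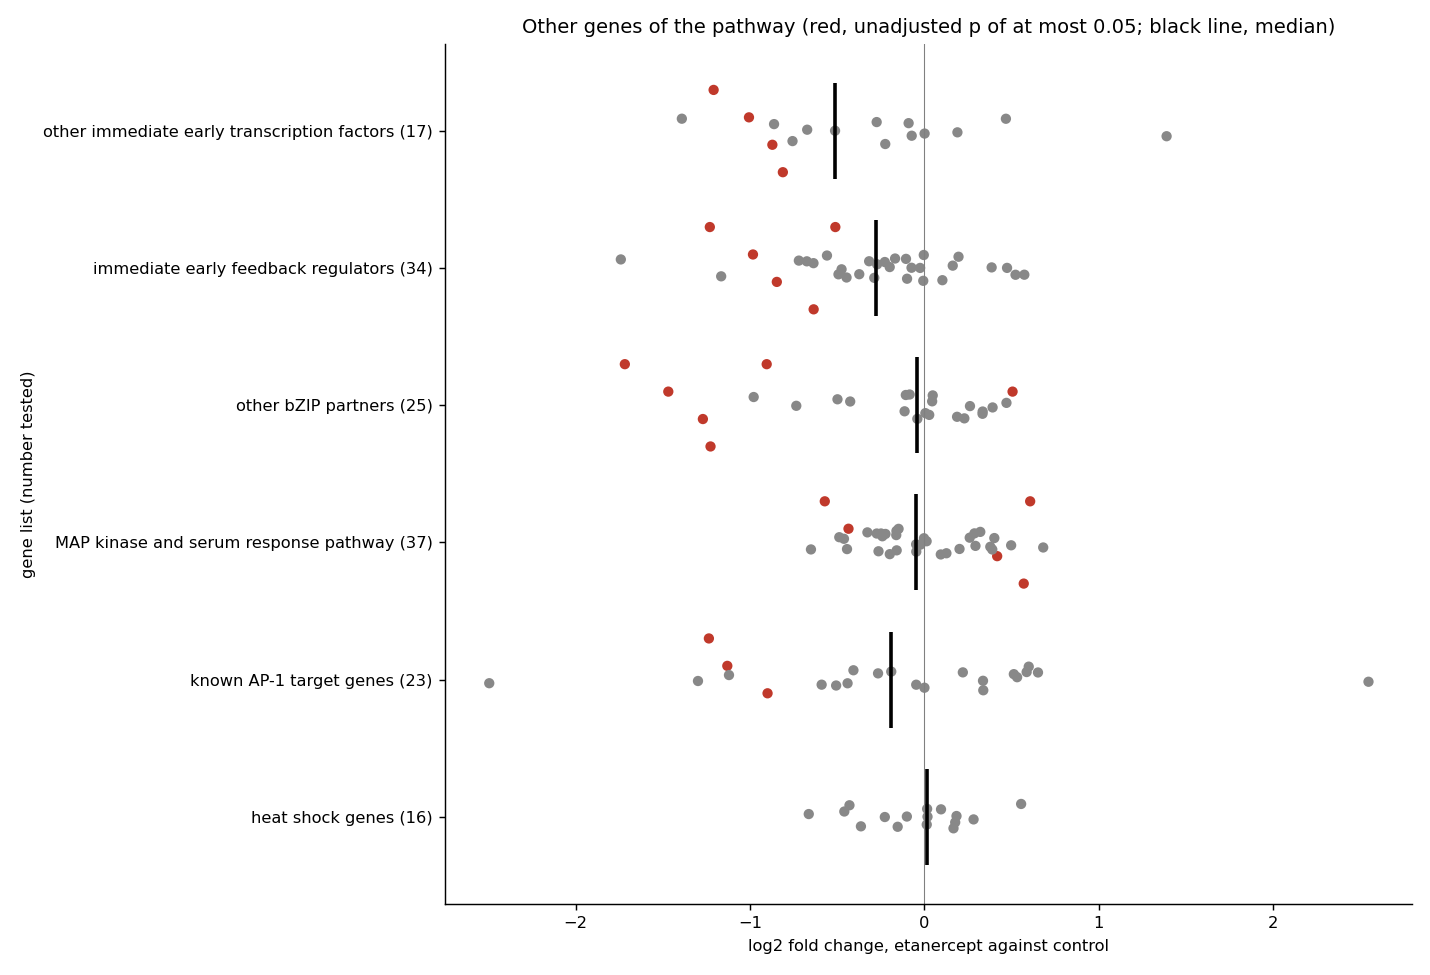
Log2 fold change of etanercept against control (horizontal axis) of the tested genes of 6 lists (rows, number tested in brackets), with genes at a nominal p of 0.05 or less in red and a black line at each list's median. The height of a point within its row has no meaning. The medians of the other immediate early transcription factors (−0.51) and of the feedback regulators (−0.28) lie left of 0, and those of the other bZIP genes, the MAP kinase pathway and the heat shock genes lie between −0.05 and 0.015.

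The mRNAs also differed in words linked to rapid decay. The AU-rich nonamer TTATTTATT was present in the 3′ UTR of 2 of the 10 genes, Fos and Fosl2, and of 8.04% of 13942 tested genes. The shorter ATTTA occurred 8 times in the 3′ UTR of Fosl2, 4 times in those of Fos and Jun, 3 times in Atf3, 2 times in Junb and Egr1, 1 time in Fosb, Fosl1 and Jund and 0 times in Ier2, against a median of 2 over all tested genes. These counts are not per length: the 3′ UTR held 4653 nt in Fosl2, 815 nt in Fos and 1233 nt in Jun, against a median of 1235.5 nt. Of the 2 genes with the nonamer, Fos had the largest and Fosl2 the smallest within-group spread of the 10.

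Several of the genes overlap another gene on the opposite strand, and the strand setting of the counting is not given in the sources used here, so their counts are uncertain to that extent. Exons of Jund share 877 nt with Gm11175, which had 0 counts in all 8 mice, and exons of Jun share 232 nt with Junos, which had 0 to 34 counts. Junb shares 173 nt of exon with Prdx2, whose log2 fold change was −0.026 ± 0.20 (SE). Fosl1 shares 1163 nt with Ccdc85b, a gene at 64.2 to 159 CPM with a log2 fold change of −0.55 ± 0.24 (SE), so the few counts of Fosl1 are the least certain of the 10.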

How the data were processed

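RNA of 8 NOD mouse prostates was sequenced as poly(A)-selected paired reads of 150 nt. Per the labels, the authors' tools were fastp, STAR 2.6.1d and featureCounts 1.5.0-p3 on mm10, and the authors deposited raw read counts per gene and mouse, without normalization. The annotation release and strand setting are not given in the sources used here. Genes were named and located with GENCODE M21 (GRCm38), which lacks 37 of the 54532 identifiers, holding 0.00429% of the counts.

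The genes and the pathway lists were chosen with earlier results of these data known. Counts were fitted with edgeR 4.0.16 in R 4.3.3 (TMM, filterByExpr with a minimum count of 10, quasi-likelihood test, Benjamini-Hochberg adjustment over 15472 genes), and the fit was tested on simulated data. Levels are CPM after TMM scaling, TPM used the exon union, and scores and correlations used log2(CPM + 1). Single values per mouse were compared by exact permutation over 70 assignments. Correlations with the group means removed were tested over the 576 pairings within groups, a test added after the data were seen. The labels do not say whether the mice shared a cage or batch. Alternatives were DESeq2 1.42.0, other scaling and filters, a robust fit, a block for animal numbers below 20 or above 49, removal of length or GC trends (lowess, span 0.3) and leaving out each mouse. Beside the 10 genes, the text names, per list, up to 4 genes of smallest p and 2 with the largest r with Fos, the 10 and 5 genes most like Fos and Jund, overlapping genes, and Tnf. Marker lists are given as sums. A few genes that this rule picks are not reported here. The depth of 13760669 to 25178942 counts sets a floor of 3 counts, and floors cover counting error only.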

Additional observations from a re-analysis of the deposited data

Results flagged for a closer look

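Fosl1 in the etanercept-treated mice was the one result with a sample far from the others: etanercept 19 had 1.12 CPM, and the other 3 mice of the group had 0, so that the gap was the whole range of the group. The value rests on 21 counts. Of 20 groups of values examined in this way (10 genes in each group of mice), chance picks about 1 in 20. Of the 2033 nt of Fosl1 exon, 1163 overlap exons of Ccdc85b on the other strand. The cause was not tested.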

How the results depend on the processing

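No paired analysis was possible because the control and etanercept-treated mice share no replicate number. Of all genes, 0 reached an adjusted p of 0.05 in every edgeR fit, with each mouse left out included, and 21 by DESeq2's Wald test, none of them among the 10 genes. The 463 genes higher at a nominal (unadjusted) p of 0.05 or less became 285 with library size alone, 274 with the GC trend removed and between 263 and 870 with a mouse left out, and the 561 lower genes became between 398 and 956, both highest without control 69. Settings chosen after seeing the data gave 168 higher genes with animal numbers below 20, 209 lower genes with animal numbers above 49 and 332 lower genes without control 1 and 3. The 2 pairs of genes that passed over all mice, a count that carries the choice of the genes, became between 0 and 3 with a mouse left out: 1 without control 1, 3 or 65 and 0 without etanercept 52. Library size alone moved the median log2 fold change of all genes to −0.094. The difference of the mean over the 10 genes, −0.64, lay between −0.82 and −0.42 with a mouse left out. With a pseudocount of 0.1, the within-group spread of Fosl1 moved from the 56.9 to the 84.8 percentile and those of Fosb and Egr1 to the 76.6 and 76.1. Without etanercept 19 that of Fosl1 lay at the 33.2, and without etanercept 17 that of Jund at the 19.8 percentile. With CPM in place of TPM, 4 of the 10 genes kept their place in the order of levels. The cause of these shifts was not tested.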
